A study of Mus musculus with 6 samples.

Results

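Genes that start, restrain and dissolve blood clots were followed in coronary endothelial cells (ECs) of the mouse embryo, with and without *Wt1*. The set holds 9 of the 55416 genes in the count table and was chosen by symbol from what the encoded proteins do: tissue factor (*F3*), its inhibitor (*Tfpi*), thrombomodulin (*Thbd*), the EC protein C receptor (*Procr*), protein S (*Pros1*), the thrombin receptor PAR1 (*F2r*), von Willebrand factor (*Vwf*), factor VIII (*F8*) and tissue plasminogen activator (*Plat*). All 9 were counted often enough to be tested. RNA-Seq libraries came from 3 ControlΔEC and 3 Wt1KOΔEC samples, described as biological replicates, each of about 2 ng of RNA from ventricular cells sorted for mGFP. Both groups carried Pdgfb-CreERT2/+ (Pdgfb-iCreERT2 in the study) and R26-mTmG/+, so that tamoxifen turned on mGFP wherever the Pdgfb-driven Cre had recombined. ControlΔEC embryos were Wt1 +/+ and Wt1KOΔEC embryos were Wt1 loxP/loxP. Their mothers received tamoxifen at 75 mg/kg between E11.5 and E13.5, and hearts were taken at E15.5. The Cre marks cells by the activity of the *Pdgfb* promoter, so a sorted sample is defined by recombination and not by a surface marker of ECs.

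Clotting is started when tissue factor, which quiescent endothelium is known to hold at a low level, meets factor VII in blood, and the thrombin that follows converts fibrinogen to fibrin. ECs restrain this with TFPI and with thrombomodulin, which together with the protein C receptor turns thrombin into an activator of protein C, for which protein S is the cofactor. ECs also store von Willebrand factor, the carrier of factor VIII, and release tissue plasminogen activator, which starts the digestion of fibrin. Thrombin signals to ECs through PAR1, a receptor it cleaves.

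The targeted gene was checked first. *Wt1* (chr2:104956625-105003961, GRCm39, plus strand) was at 145, 109.6 and 148.7 CPM in ControlΔEC replicates 1, 2 and 3 and at 14, 18.4 and 21.3 CPM in the Wt1KOΔEC replicates, where CPM are a library's counts scaled to a common total after adjustment by trimmed means of M-values (TMM). Its log2 fold change of Wt1KOΔEC over ControlΔEC was -2.91±0.22 (SE; edgeR's quasi-likelihood test, adjusted p = 0.00319). Library totals lay between 26037324 and 44779020 counts, at which 3 counts, taken as the limit of detection, are worth 0.0608 to 0.119 CPM. This limit covers counting error only, because amplified reads were not tied to single molecules. The EC list (*Pecam1*, *Cdh5* and 6 others) summed to 4541 to 5769 CPM in ControlΔEC and 4688 to 5405 CPM in Wt1KOΔEC, with 3 genes higher and 5 lower. Within it *Kdr* was lower in every Wt1KOΔEC library, at 1029 to 1202 against 859.9 to 991.3 CPM. *Emcn* was higher in every one, at 289.6 to 386 against 430.6 to 501.4 CPM. Replicate 2 of each genotype held Y-linked transcripts and hardly any *Xist*, whereas the other 4 libraries held *Xist* at 313.6 to 717.2 CPM and no *Ddx3y*. The ribosomal RNA *Rn18s* took 13.2% to 15.3% of counts in ControlΔEC and 21.1% to 26.5% in Wt1KOΔEC, and mitochondrially encoded genes took 5.21% to 6.61% and 1.68% to 4.57%. Neither share overlapped between the genotypes. Without these genes in the scaling the log2 fold change of *F3* was 1.81, as with them. That fit changes only the scaling, so the part of whatever else differs with these shares in the *F3* result was not tested. The p-values below set a difference against the spread between these libraries, and in bulk RNA fewer cells of a type and less RNA per cell cannot be told apart.

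None of the 9 genes was called by edgeR (adjusted p under 0.05 and absolute log2 fold change above 0.58), against 0.0736% of the 16296 genes tested, which is 12 genes. At an unadjusted p under 0.05 there was 1 of the 9, *F3*, against 13.1% of all genes, and DESeq2 called the same 1, against 4.67% of the genes it tested. *F3* was also the 1 gene of the set whose libraries did not overlap between the genotypes, which 19.3% of all genes tested did. The fitted log2 fold change was above 0 for 5 members and below 0 for 4. Their median was 0.01, beside -0.03 over all genes tested. Summed over the set, the libraries held 1119 to 1548 CPM in ControlΔEC and 1319 to 1452 CPM in Wt1KOΔEC, so the ranges overlapped.

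**Figure D1:**
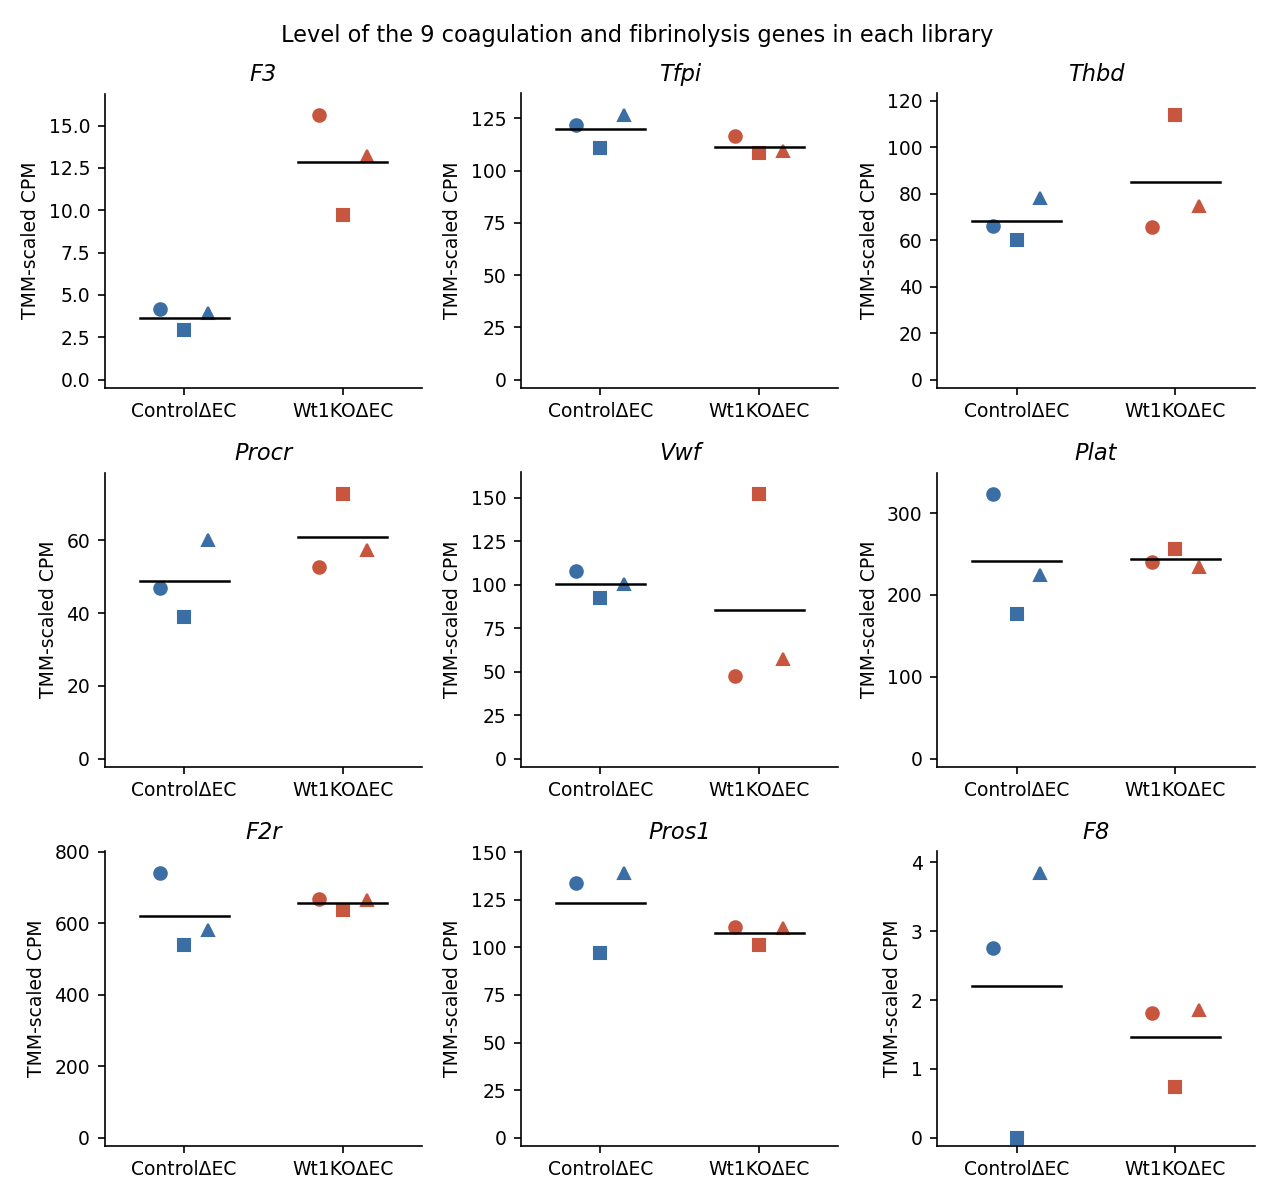
TMM-scaled CPM (vertical axes, each from 0) of the 9 genes in the 3 ControlΔEC (blue) and 3 Wt1KOΔEC (red) libraries; circles, squares and triangles are replicates 1, 2 and 3 and the black line is the mean. The *F3* points separate, at 2.92 to 4.16 against 9.75 to 15.6 CPM, and the points of the other 8 genes overlap between genotypes.

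The bases before the start of *F3* and of *Procr* are shown because *F3* held the largest difference of the set and because both windows hold an AP-1 motif. The sequences are from GRCm39 with gene starts of GENCODE vM39, read 5′ to 3′ on the strand of the gene, and leave out bases that an exon of another isoform covers. Capitals mark the AP-1 motif TGANTCA and the SP motif GGGCGG, searched on both strands (the latter then reads CCGCCC).
F3, chr3:121517049-121517176, plus strand: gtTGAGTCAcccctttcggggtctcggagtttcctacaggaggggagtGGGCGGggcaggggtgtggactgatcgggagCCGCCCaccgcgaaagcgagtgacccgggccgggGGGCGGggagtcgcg
Procr, chr2:155592781-155593030, plus strand: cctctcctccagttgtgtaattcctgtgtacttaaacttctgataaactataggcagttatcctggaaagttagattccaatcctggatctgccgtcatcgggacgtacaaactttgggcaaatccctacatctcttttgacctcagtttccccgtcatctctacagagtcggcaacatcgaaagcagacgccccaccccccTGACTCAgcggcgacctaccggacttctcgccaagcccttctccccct
The *F3* stretch covers the bases from 137 to 10 before the start of its main transcript, and the *Procr* stretch all 250 bases before its start.

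Over the full 250 bases before the start, *F3* held 2 AP-1 motifs, TGAATCA from 146 to 140 and TGAGTCA from 135 to 129 bases before it, and 3 SP motifs beginning 89, 58 and 24 bases before it. *Procr* held 1 AP-1 motif, TGACTCA, from 48 to 42 bases before its start. Of 21770 promoters of this length, 6.17% held TGANTCA and 36.3% held GGGCGG. *Thbd* and *F2r* each held 1 GGGCGG, and *Pros1* held 1 copy of TCCTCCTCC, a repeat that WT1 is known to bind, which 2.24% of promoters hold. The windows of *Tfpi*, *Vwf*, *Plat* and *F8* held none of the motifs searched. The letters GCGTGGGNG, known for WT1 and found in 1.72% of promoters, and GCGGGGGCG, known for EGR factors and found in 2.39%, were in none of the 9 windows. These are matches of letters and not measured sites.

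*F3* (ENSMUSG00000028128.14, chr3:121516610-121528820, plus strand) encodes the receptor that starts coagulation. It was at 4.16, 2.92 and 3.92 CPM in ControlΔEC replicates 1, 2 and 3 and at 15.6, 9.75 and 13.2 CPM in Wt1KOΔEC, from 113 to 186 and from 333 to 611 counts. Every Wt1KOΔEC library lay above every ControlΔEC library, and replicate 2 was the lowest of its genotype in both. The means were 3.67±0.657 and 12.9±2.96 CPM (SD, n=3 each), a ratio of 3.51. This is a log2 fold change of 1.81±0.37 (SE, 95% interval 0.98 to 2.64), with an adjusted p of 0.117 in edgeR's quasi-likelihood test over all genes kept. DESeq2 gave the same size of change with an adjusted p of 7.63e-05, and edgeR without the filter on low counts gave an adjusted p of 0.0399 and called 1.21% of its genes. The call on *F3* thus rests on the tool and the filter, while its log2 fold change lay between 1.64 and 1.97 under all 20 other settings, with adjusted p-values from 7.63e-05 to 0.469. A two-sided exact permutation test over the libraries gave p=0.1, the smallest that 3 against 3 allows. Without both libraries that held Y-linked transcripts the log2 fold change was 1.83. Exons of *Gm43823* and *Gm64338* on the other strand share 439 and 642 bases with exons of *F3*, and since counting did not use strand, reads of these bases cannot be assigned to either strand. *Gm43823* was at 0.0694 CPM on average and *Gm64338* was not analysed here.

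Tissue factor is known to be abundant in cells around vessels, such as fibroblasts and pericytes, so lists of other cells are given beside it. The sort for mGFP should remove cells in which the Cre did not recombine, among them those of the epicardium. The 5 genes of the erythroid list still summed to 4080 to 9205 CPM in ControlΔEC and 3029 to 5119 CPM in Wt1KOΔEC, which overlapped. The 6 cardiomyocyte markers summed to 95.8, 131.7 and 114.5 CPM in ControlΔEC and to 147, 78.6 and 177.3 CPM in Wt1KOΔEC. Their sums overlapped as well, with 5 of 5 tested markers higher. The 7 fibroblast markers summed to 584.8 to 868.6 CPM in ControlΔEC and 1158 to 1368 CPM in Wt1KOΔEC, with 6 of 7 higher and *Col1a1* called. Most of this sum was *Col3a1*, at 271.1 to 393.4 against 567.7 to 672.8 CPM, and *Col1a1*, at 100.0 to 123.5 against 245.0 to 321.6 CPM, while *Postn* was at 152.0 to 294.6 against 190.9 to 256.4 CPM. The study counts *Col1a1*, *Col3a1* and *Dcn* of this list among markers of venous ECs. It also uses *Col1a1* as a fibroblast gene in its check of the sort, where it reports such genes at relatively low counts. The 7 epicardial markers summed to at most 17.9 CPM in ControlΔEC and to 54.6, 17.7 and 45.04 CPM in Wt1KOΔEC, with 6 of 7 higher. The epicardial sums overlapped between the genotypes. *Msln*, a marker of mesothelium, was at 1.32, 0 and 0.416 CPM in ControlΔEC and at 18.9, 2.75 and 7.76 CPM in Wt1KOΔEC. *Lrrn4* was at 3.46, 0 and 0 CPM in ControlΔEC and at 5.25, 0.421 and 9.42 CPM in Wt1KOΔEC. *Aldh1a2* overlapped, at 1.92, 5.9 and 13.3 CPM in ControlΔEC and at 7.96, 3.65 and 8.785 CPM in Wt1KOΔEC. Genes of the response to tissue dissociation (*Fos*, *Egr1* and 8 others) summed to 2019 to 2640 CPM in ControlΔEC and 2895 to 3202 CPM in Wt1KOΔEC, with 9 of 10 higher. *Nr4a1* of this list was lower in every Wt1KOΔEC library, at 326.5 to 484.3 against 310.8 to 325.1 CPM. *Egr1* overlapped, at 175.4 to 281.3 against 248.5 to 298.8 CPM. Mural cell markers moved the other way, at 465.6 to 632.1 CPM against 324.0 to 378.9 CPM, with 6 of 7 tested lower. *Rgs5* of this list was at 26.8 to 165.4 against 17.9 to 25.4 CPM, while *Acta2*, at 33.25 to 55.5 against 36.0 to 55.2 CPM, overlapped. The study counts *Rgs5* and *Kcnj8* of this list among arterial genes. The sums of the fibroblast, dissociation and mural lists did not overlap between the genotypes. The part of these 3 lists and of the epicardial and cardiomyocyte lists in the *F3* result was not tested.

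**Figure D2:**
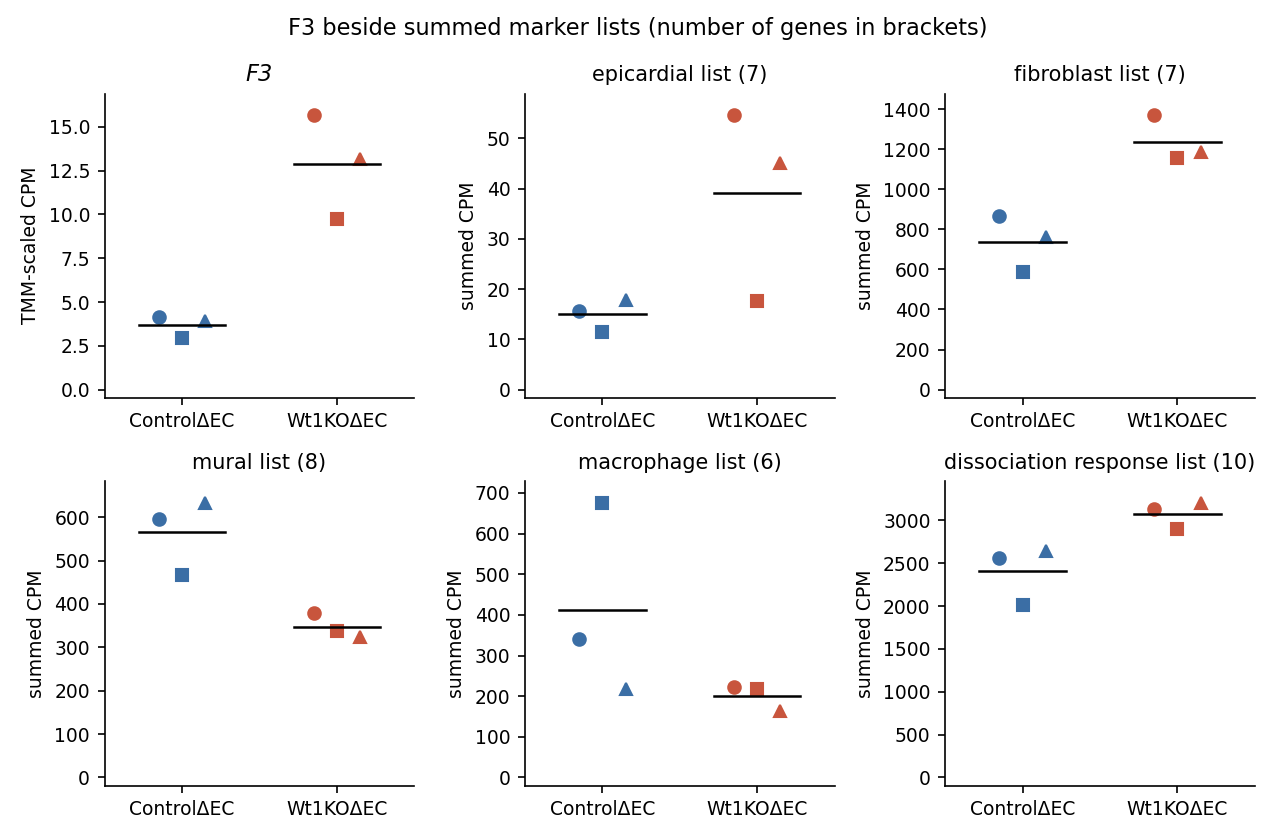
*F3* and the summed level of 5 marker lists (TMM-scaled CPM, vertical axes from 0) in the 3 ControlΔEC (blue) and 3 Wt1KOΔEC (red) libraries; circles, squares and triangles are replicates 1, 2 and 3, and the line is the mean. *F3*, the fibroblast list and the dissociation list are higher in every Wt1KOΔEC library and the mural list is lower, whereas the epicardial and macrophage sums overlap.

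*Tfpi* (ENSMUSG00000027082.16, chr2:84263195-84307164, minus strand), the inhibitor of tissue factor and factor VII, was at 121.7, 110.9 and 126.7 CPM in ControlΔEC and at 116.5, 108.6 and 109.2 CPM in Wt1KOΔEC. The libraries overlapped and lay close together in both genotypes. Its log2 fold change was -0.10±0.14 (SE, 95% interval -0.42 to 0.22; edgeR, adjusted p = 0.848). Within a library the log2 ratio of *F3* to *Tfpi* counts does not depend on how libraries are scaled. It was -4.86, -5.23 and -4.99 in ControlΔEC and -2.89, -3.47 and -3.04 in Wt1KOΔEC. The ratio did not overlap between genotypes and differed by 1.89 on the log2 scale, with a two-sided exact permutation p=0.1, or 0.4 after adjustment over the 4 ratios computed, of which 3 are given. With 3 libraries against 3 an exact permutation test cannot go below p=0.1.

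The protein C pathway was represented by 2 receptors and a cofactor. *Thbd* (ENSMUSG00000074743.5, chr2:148216045-148250201, minus strand) was at 66.2, 60.1 and 78.1 CPM in ControlΔEC and at 65.9, 114 and 74.6 CPM in Wt1KOΔEC. Wt1KOΔEC replicate 2 stood above the other 5 libraries, which overlapped. For *Thbd* the log2 fold change was 0.32±0.23 (SE, 95% interval -0.19 to 0.83; edgeR, adjusted p = 0.631), and 0.04 without that library. *Procr* (ENSMUSG00000027611.13, chr2:155593031-155597397, plus strand) was at 47.0, 39.0 and 60.2 CPM in ControlΔEC and at 52.7, 72.8 and 57.3 CPM in Wt1KOΔEC. Wt1KOΔEC replicate 2 was again the highest of all 6, and the genotypes overlapped. The log2 fold change of *Procr* was 0.32±0.22 (SE, 95% interval -0.16 to 0.81; edgeR, adjusted p = 0.601), 0.17 without that library and 0.505 without ControlΔEC replicate 3. *Pros1* (ENSMUSG00000022912.9, chr16:62674275-62749710, plus strand) was at 133.9, 97.3 and 139.2 CPM in ControlΔEC and at 110.7, 101.2 and 110.0 CPM in Wt1KOΔEC. ControlΔEC replicate 2 was its lowest library and the other ControlΔEC libraries were its highest. For *Pros1* the log2 fold change was -0.20±0.17 (SE, 95% interval -0.60 to 0.19; edgeR, adjusted p = 0.715), -0.346 without ControlΔEC replicate 2 and -0.106 without ControlΔEC replicate 3. *Tfpi*, *Thbd* and *Procr* lie on the chromosome of *Wt1*, at 20.6, 43.2 and 50.6 Mb from it.

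*F2r* (ENSMUSG00000048376.7, chr13:95737382-95755177, minus strand), which encodes the thrombin receptor PAR1, had the highest level of the set. It was at 740.9, 539.4 and 580.0 CPM in ControlΔEC and at 668.6, 636.7 and 663.2 CPM in Wt1KOΔEC. All Wt1KOΔEC libraries fell between the lowest and the highest ControlΔEC library. Between genotypes *F2r* differed by a log2 fold change of 0.08±0.16 (SE, 95% interval -0.28 to 0.44; edgeR, adjusted p = 0.905). Thrombomodulin and PAR1 both bind thrombin, and their log2 ratio of counts, *Thbd* to *F2r*, was -3.48, -3.17 and -2.89 in ControlΔEC and -3.34, -2.48 and -3.15 in Wt1KOΔEC. The ratios overlapped and differed by 0.19 between the means (two-sided exact permutation p=0.6).

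*Vwf* (ENSMUSG00000001930.18, chr6:125523737-125663642, plus strand), which encodes the adhesive protein of Weibel-Palade bodies, varied most among the Wt1KOΔEC libraries of the members above 10 CPM. It was at 107.7, 92.5 and 100.5 CPM in ControlΔEC and at 47.3, 152.3 and 57.2 CPM in Wt1KOΔEC. The ControlΔEC libraries lay close together, whereas Wt1KOΔEC replicates 1 and 3 were below all of them and replicate 2 was above all of them. The means were 100.2±7.63 and 85.6±58.0 CPM (SD, n=3 each). The log2 fold change was -0.23±0.39 (SE, 95% interval -1.10 to 0.64; edgeR, adjusted p = 0.886), -0.94 without Wt1KOΔEC replicate 2 and 0.06 without Wt1KOΔEC replicate 1. The endocardial list (*Npr3* and 4 others) was also highest in Wt1KOΔEC replicate 2, at 362.1 CPM against 270.7 and 313.9 CPM in replicates 1 and 3 and 200.1 to 317.4 CPM in ControlΔEC. Megakaryocytes and platelets make von Willebrand factor too, and the 8 genes of their list summed to 31.5, 63.7 and 16.6 CPM in Wt1KOΔEC and to 41.3, 62.5 and 36.3 CPM in ControlΔEC. That sum was highest in replicate 2 of either genotype. The part of these lists in the spread of *Vwf* was not tested.

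*F8* (ENSMUSG00000031196.14, chrX:74216321-74426221, minus strand), the cargo of von Willebrand factor, was the lowest gene of the set. It had 123, 0 and 111 counts in ControlΔEC and 71, 26 and 47 counts in Wt1KOΔEC, or 2.75, 0 and 3.85 CPM and 1.82, 0.73 and 1.86 CPM. The 2 lowest libraries were the 2 that held Y-linked transcripts, and *F8* is X-linked. Its log2 fold change was -0.58±1.47 (SE, 95% interval -3.90 to 2.74; edgeR, adjusted p = 0.931), an interval that holds large changes in either direction. It was -1.16 without ControlΔEC replicate 2, 0.10 without ControlΔEC replicate 3 and 0.59 with the presence of Y-linked transcripts as a covariate. With this spread between libraries no difference in *F8* was detectable. The log2 ratio of *Vwf* to *F8* was 5.27, 11.2 and 4.68 in ControlΔEC and 4.66, 7.60 and 4.88 in Wt1KOΔEC, and the high value of ControlΔEC replicate 2 comes from its count of 0. The ratios overlapped (two-sided exact permutation p=0.6).

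*Plat* (ENSMUSG00000031538.7, chr8:23247709-23272871, plus strand), the plasminogen activator that ECs secrete, was at 323.6, 176.9 and 223.8 CPM in ControlΔEC and at 239.7, 256.1 and 234.4 CPM in Wt1KOΔEC. The ControlΔEC libraries spread around the Wt1KOΔEC libraries, with SDs of 74.9 and 11.3 CPM. The log2 fold change was 0.01±0.22 (SE, 95% interval -0.48 to 0.50; edgeR, adjusted p = 0.991).

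**Figure D3:**
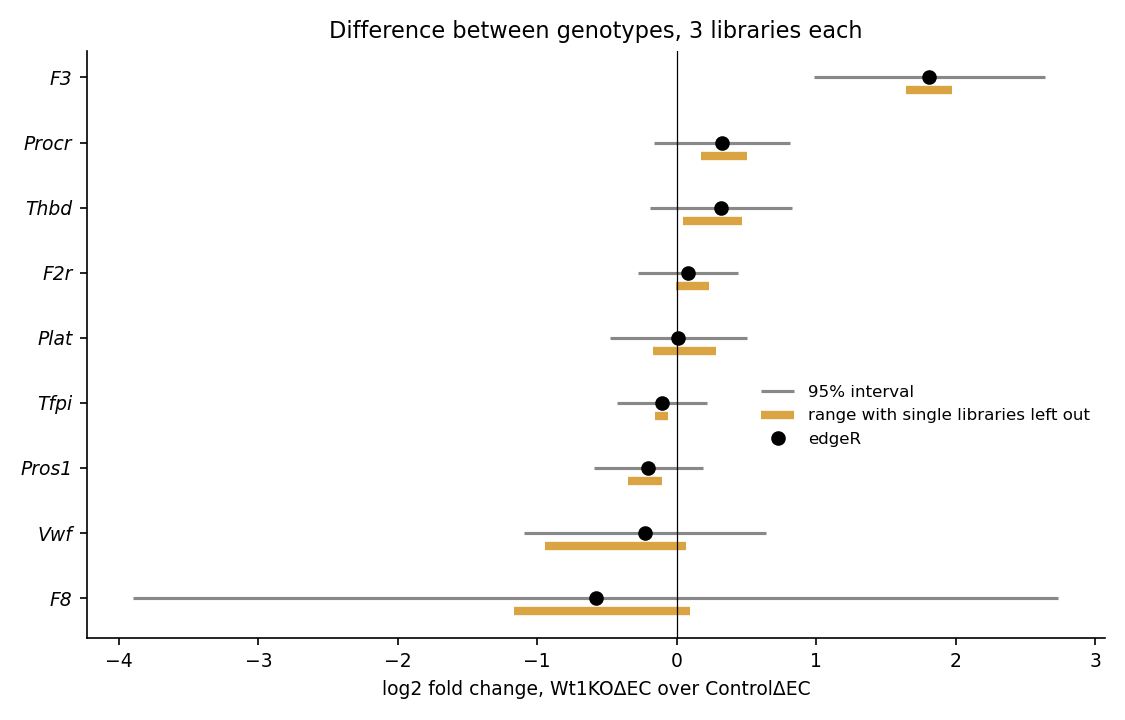
Fitted log2 fold change of Wt1KOΔEC over ControlΔEC (horizontal axis) for each of the 9 genes; black points are the edgeR fit of 3 libraries against 3, grey lines its 95% interval and ochre bars the range of the fit as each library is left out in turn. The interval of *F3* lies above 0, those of the other 8 genes include 0, and that of *F8* runs from -3.90 to 2.74.

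**Figure D4:**
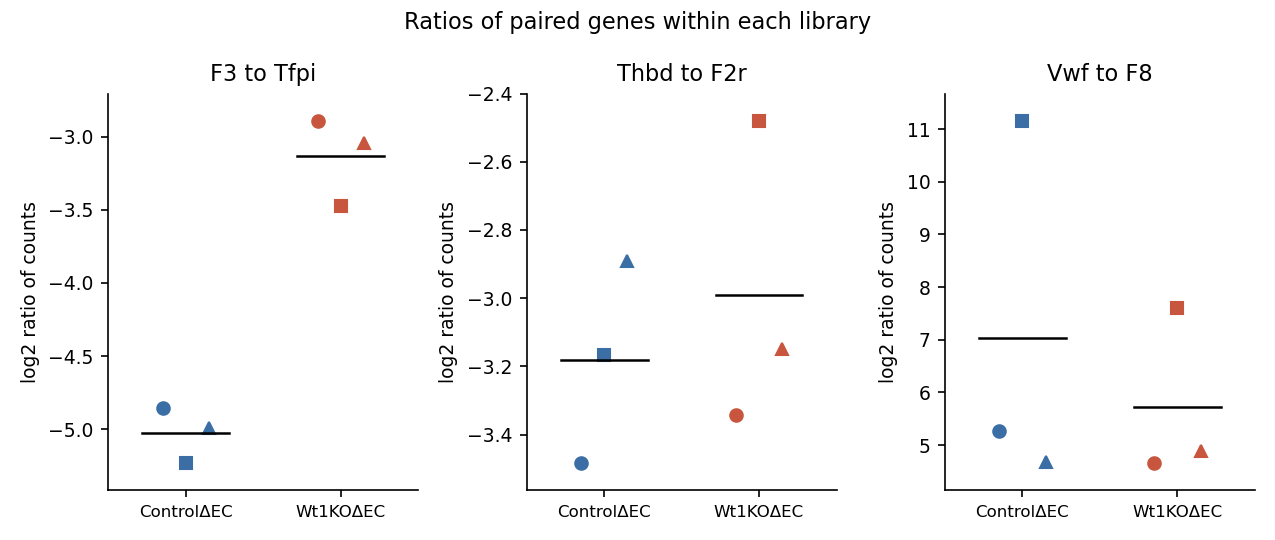
Log2 ratio of the counts of 3 pairs of genes within each library (vertical axes, which do not start at 0) in ControlΔEC (blue) and Wt1KOΔEC (red); circles, squares and triangles are replicates 1, 2 and 3 and the line is the mean. *F3* to *Tfpi* separates, at -5.23 to -4.86 against -3.47 to -2.89, and the other ratios overlap.

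Levels of different genes were compared as CPM per kb of exonic length, averaged over all 6 libraries. This length counts every base in an exon of any annotated isoform, and the isoforms present were not analysed here. The order thus also depends on the length taken for each gene. *F2r* came first with 143.5 CPM per kb, followed by *Plat* with 34.8, *Procr* with 26.8, *Tfpi* with 18.8, *Pros1* with 18.3, *Thbd* with 10.5, *Vwf* with 5.56, *F3* with 2.67 and *F8* with 0.185 CPM per kb. The libraries of *F2r* did not overlap with those of *Plat*, nor those of *F3* with those of *F8*, and the ranges of all other neighbours in this order overlapped. Within each of the 6 libraries, however, *Plat* was above *Procr*, *Procr* above *Tfpi*, *Pros1* above *Thbd* and *Thbd* above *Vwf*. *Tfpi* was above *Pros1* in 4 of 6 libraries, so this pair did not differ beyond its spread. *Vwf* was above *F3* in 4 of 6 libraries. The exceptions were Wt1KOΔEC replicates 1 and 3, where *F3* was at 5.05 and 4.25 CPM per kb and *Vwf* at 2.83 and 3.42. In ControlΔEC *F3* was at 0.942 to 1.34 and *Vwf* at 5.53 to 6.44 CPM per kb. *Tfpi* and *Pros1* changed places between the genotypes, and the other ranks were the same in both.

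The genes whose levels over the 6 libraries were most like those of a member were found by the root mean square difference of log2 CPM, each centred on its own mean, among 8472 genes with a mean of at least 10 CPM. For *F3* they were *Tnfsf9*, a ligand of the tumour necrosis factor family, with a difference of 0.22, and *Il27ra*, a cytokine receptor, with 0.25, where *F3* itself had an SD of 1.02 on that scale. *Tnfsf9* was at 8.65, 5.64 and 6.69 CPM in ControlΔEC and at 26.3, 19.7 and 17.2 CPM in Wt1KOΔEC. All these genes were picked for likeness to a member, so a pattern shared with it is no separate observation. For *Thbd* they were *Ncam1* (0.045) and *Zkscan17* (0.084), and for *Procr* *Crkl* (0.073) and *Tbl1x* (0.077). *Vwf* was followed most closely by *Stmn2* (0.12) and *Utp20* (0.20), both of which, by this choice, were highest in Wt1KOΔEC replicate 2. For *Tfpi* they were *Rac1* and *Uhrf1*, for *Plat* *Aldh3a2* and *Pccb*, for *F2r* *Tubb6* and *Cdc42* and for *Pros1* *Elf2* and *Ube2d2a*, at differences from 0.034 to 0.057. *F8* had no close match, with *Pcdh18* at 0.59 and *Actg-ps1* at 0.90.

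Around these 9 genes, 42 other genes of coagulation and fibrinolysis were listed and 26 were tested. Of the 16 not tested, 10 had no count in any library, among them the fibrinogen genes *Fga*, *Fgb* and *Fgg* and protein C (*Proc*), which the liver is known to make. edgeR called 0 of the 26, 5 had an unadjusted p under 0.05 (19.2%, against 13.1% of all genes), and DESeq2 called 4. Of these, 2 were higher and 2 were lower in Wt1KOΔEC, where DESeq2 called 2.14% of all genes higher and 2.54% lower. The libraries of 7 did not overlap between the genotypes (26.9%, against 19.3% of all genes), and the median log2 fold change of the 26 was 0.01.

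By role, none of 2 tested genes of the tissue factor pathway, 1 of the protein C pathway and 3 protease-activated receptors had an unadjusted p under 0.05. There were 2 of 4 among partners of von Willebrand factor and factor VIII, 1 of 8 in plasminogen activation, 1 of 5 among thrombin, fibrin and contact factors and 1 of 3 in vitamin K dependent carboxylation.

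*Lman1*, part of the receptor that carries factors V and VIII from the endoplasmic reticulum, was at 63.5, 49.2 and 81.9 CPM in ControlΔEC and at 122.7, 141.1 and 136.0 CPM in Wt1KOΔEC. The Wt1KOΔEC libraries were all higher, and the log2 fold change was 1.04±0.20 (SE; adjusted p = 0.114 in edgeR and 0.00024 in DESeq2). Its partner *Mcfd2* was at 73.5 to 92.7 CPM in ControlΔEC and at 75.2 to 85.4 CPM in Wt1KOΔEC, which overlapped. *Stab2*, a scavenger receptor that clears the complex of von Willebrand factor and factor VIII, was at 0.514, 1.58 and 0.416 CPM in ControlΔEC and at 2.48, 5.11 and 3.96 CPM in Wt1KOΔEC. Its libraries did not overlap, and the log2 fold change was 2.19±0.83 (SE; adjusted p = 0.316 in edgeR and 0.0591 in DESeq2). The list of lymphatic ECs, cells that express *Stab2*, summed to 267.1 to 283.2 CPM in ControlΔEC and 276.9 to 370.2 CPM in Wt1KOΔEC, with 4 of 4 higher. These sums overlapped, and most of them was *Flt4*, at 223.2 to 259.8 against 219.3 to 290.2 CPM. The endocardial list overlapped too, at 200.1 to 317.4 against 270.7 to 362.1 CPM, with 5 of 5 higher. The part of either list in the *Stab2* result was not tested.

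*Plaur*, the receptor of urokinase, was at 112.6, 77.3 and 88.4 CPM in ControlΔEC and at 147.3, 129.6 and 153.7 CPM in Wt1KOΔEC, again without overlap. The log2 fold change was 0.63±0.18 (SE; adjusted p = 0.22 in edgeR and 0.0291 in DESeq2). *Plau*, which encodes urokinase, was at 42.5 to 45.7 CPM in ControlΔEC and at 48.2 to 53.5 CPM in Wt1KOΔEC, with a log2 fold change of 0.23±0.16 (SE; edgeR, adjusted p = 0.631); it and *Mcfd2* are named as partners, after their values were seen. *Vkorc1l1*, which recycles vitamin K, was at 12.4, 9.18 and 9.71 CPM in ControlΔEC and at 4.58, 5.03 and 5.98 CPM in Wt1KOΔEC. All its Wt1KOΔEC libraries were lower, with a log2 fold change of -1.005±0.35 (SE; adjusted p = 0.278 in edgeR, 0.0405 in DESeq2 and 0.136 in DESeq2 on the genes kept by the filter).

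*F13a1*, the transglutaminase subunit of factor XIII that cross-links fibrin, was at 19.9, 69.3 and 19.4 CPM in ControlΔEC and at 9.62, 8.45 and 1.504 CPM in Wt1KOΔEC. Every Wt1KOΔEC library was below every ControlΔEC library, and ControlΔEC replicate 2 stood far above the rest. The log2 fold change was -2.46±0.71 (SE; adjusted p = 0.22 in edgeR and 0.0085 in DESeq2), and -1.59 without that library. Macrophages are known to make this subunit. The 6 macrophage markers summed to 339.8, 674.8 and 218.4 CPM in ControlΔEC and to 223.5, 217.7 and 162.6 CPM in Wt1KOΔEC, with 0 of 6 higher and the sum highest in the same library as *F13a1*. The part of these cells in the *F13a1* result was not tested.

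**Figure D5:**
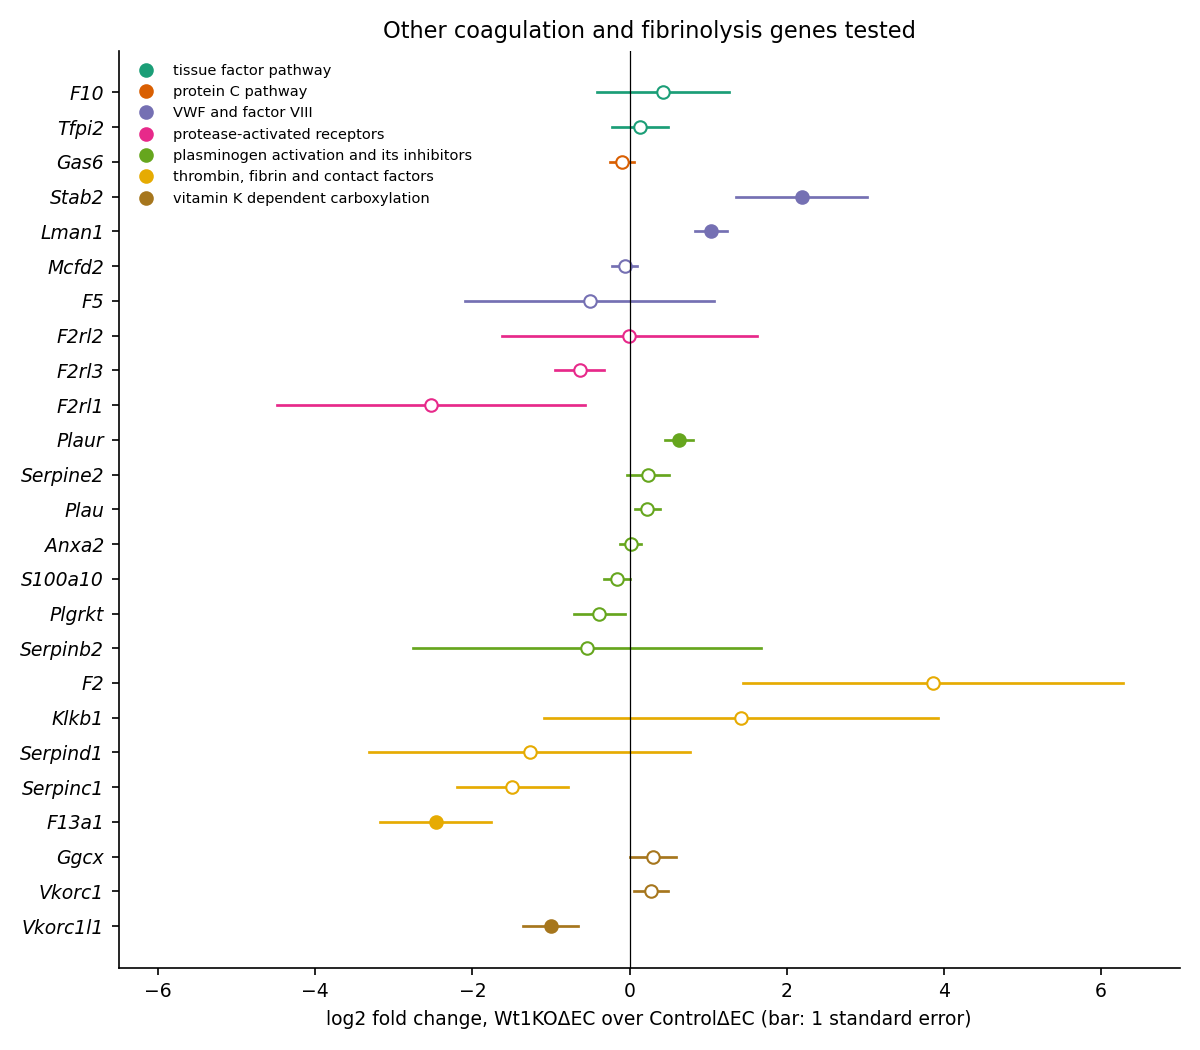
Fitted log2 fold change of Wt1KOΔEC over ControlΔEC (horizontal axis) for 25 of the 26 other coagulation and fibrinolysis genes tested, coloured by role; bars are 1 standard error and filled points have an unadjusted p under 0.05 in edgeR. The filled points are *Stab2*, *Lman1* and *Plaur* above 0 and *F13a1* and *Vkorc1l1* below 0, and none had an adjusted p under 0.05.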

How the data were processed

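RNA-Seq of mGFP-sorted ventricular cells was analysed in 3 ControlΔEC and 3 Wt1KOΔEC libraries, grouped and numbered by their sample labels. The authors prepared libraries with SMART-seq2, which keeps no strand and no molecular identifiers, mapped reads with STAR 2.7.8a and quantified GENCODE vM27 genes with RSEM 1.3.0. The methods name GRCm39 as the genome, the submitters' processing notes GRCm38. What the authors deposited are expected counts from RSEM, 1 whole number per gene and library and not normalized, and no column was left unmapped.

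Counts were compared in R 4.3.3 with edgeR 4.0.16 (TMM, quasi-likelihood F test, Benjamini-Hochberg adjustment over 16296 genes, those reaching 10 counts in 2 or more libraries). A gene was called where its adjusted p was below 0.05 and its log2 fold change exceeded 0.58 in size. Standard errors were derived from each gene's fold change and F statistic, and 95% intervals use the fit's degrees of freedom. Log2 ratios of counts (prior count 2) were compared by two-sided exact permutation tests in scipy 1.17.1. Library totals of 26037324 to 44779020 counts set the limit of 3 counts at 0.0608 to 0.119 CPM. Positions, exonic lengths and promoters were taken from GENCODE vM39 on GRCm39, to which 54749 of the 55416 gene IDs matched.

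The 9 members, the 42 other pathway genes and the marker lists were chosen with earlier results of these data known. Genes named are *Wt1*, the members, other pathway genes with an unadjusted p under 0.05 and a mean of at least 1 CPM in a genotype, partners in the ratios, the 2 genes most like each member, and marker genes. Alternatives were DESeq2 1.42.0 (the study's tool) and limma-voom (limma 3.58.1), other normalizations and filters, a block for the replicate number, calls without the fold change limit or on unadjusted p, offsets for length and GC content (splines with 5 degrees of freedom), a prior count of 0.5 and each library left out. Proteins were not analysed here, and 1 listed gene with its ratio is not reported here. The steps were tested on simulated data.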

Additional observations from a re-analysis of the deposited data

How the results depend on the processing

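The log2 fold changes of *Wt1*, *Procr*, *Pros1*, *Lman1*, *Plaur*, *Stab2*, *F13a1*, *Vkorc1l1* and *F3* kept their direction under all 20 alternative settings of the fit. *F3* passed the threshold in 3 of them, with 1.81 in DESeq2 on all genes, DESeq2 on the genes kept and edgeR without a filter. The number of genes called, 12, became 759 in DESeq2 (599 on the genes kept), 296 without a filter, 1652 at an unadjusted p, 6 with length and GC offsets, 5 with Y-linked transcripts as a covariate and 5 without both libraries that held them. Leaving out single libraries gave 2 to 37 calls: 4 without ControlΔEC replicate 1, 26 without ControlΔEC replicate 2, 37 without ControlΔEC replicate 3, 3 without Wt1KOΔEC replicate 1 or 2 and 2 without Wt1KOΔEC replicate 3. Of the other pathway genes DESeq2 called 4 (3 on the genes kept, without *Vkorc1l1*) and edgeR without a filter 2. Those lower at an unadjusted p under 0.05 numbered 4 under scaling by library size only, and 1 (without Wt1KOΔEC replicate 1) to 3 with single libraries left out. The sign of 6 members changed under some settings. *Tfpi* was at 0.002 with length and GC offsets, and *Thbd* at -0.041 and *Plat* at -0.21 without both libraries with Y-linked transcripts. In the fit without those libraries *Procr* kept its sign only at 0.037, and *Vwf* was at -0.997. Scaling by library size only, which moved the median of all genes to -0.18, put *Plat* at -0.125 and *F2r* at -0.062. *F8* was at 1.911 in limma-voom and 0.592 with Y-linked transcripts as a covariate. With single libraries left out, *Vwf* ranged from -0.941 to 0.064, *Plat* from -0.168 to 0.283, *F2r* from -0.008 to 0.231, *F8* from -1.164 to 0.099, the *Thbd* to *F2r* ratio from -0.066 to 0.365 and the *Vwf* to *F8* ratio from -2.497 to 0.74. Without division by exonic length, 4 of the 9 ranks changed. The causes were not tested. The fits on Y-linked transcripts, DESeq2 on the genes kept and leaving *Rn18s* and mitochondrial genes out of the scaling were chosen after seeing the data.

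The replicate numbers did not pair the samples by their labels. The study's cross was made to give both genotypes from the same litter, but the sample titles name no litter. Deviations of samples with the same number correlated at 0.068, 0.212 and 0.099 over 8472 genes, and every sample correlated best with its own number. The value of 0.212 was that of replicate 2, which held Y-linked transcripts in both genotypes. The part of litter or of these transcripts in the correlations was not tested. With the replicate block 5 genes were called and *F8* was at 0.617, and with length and GC offsets as well as the block 6 were called and *F8* was at 0.84. Library identifiers run in sequence within each genotype, so a batch that follows the genotypes cannot be told apart from them.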
